A study of Macaca mulatta with 20 samples.

Results

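The genes described here are the WNT ligands, their frizzled receptors, the co-receptors LRP5, LRP6, ROR1 and ROR2, and the secreted inhibitors of the SFRP and DKK families with WIF1. They were taken by symbol from the probe sets (groups of short probes for 1 transcript) that carry exactly 1 gene symbol, and where a gene had several, the probe set whose mean over the 20 arrays was highest stands for it. In all, 39 of 14132 genes qualified, with 67 probe sets: 17 ligands, 9 frizzleds, 4 co-receptors and 9 inhibitors. No probe set carried the symbol RYK, so RYK has no value here.

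RNA came from corpora lutea of female rhesus macaques in natural menstrual cycles, and each corpus luteum was hybridised to its own Affymetrix rhesus array. After ovulation the emptied follicle becomes the corpus luteum, an endocrine gland that makes progesterone. Its stage, dated from the luteinizing hormone surge, was the only factor: early (days 3 to 5, while luteal tissue forms), mid (days 7 to 8, peak progesterone capacity), mid-late (days 10 to 12), late (days 14 to 16, progesterone secretion ceasing) and very-late (days 18 to 19, menses and structural breakdown). Each stage had 4 arrays, which the labels call biological replicates.

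WNT proteins are lipid-modified signals that act on neighbouring cells. A WNT binds a frizzled receptor together with LRP5 or LRP6 to stabilise beta-catenin, or together with ROR1, ROR2 or RYK to act on cell shape and movement without it. SFRPs and WIF1 bind the WNT itself, and DKK1 blocks LRP5 and LRP6. In the ovary the pathway is known for its part in sex determination, follicle growth and luteal formation.

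All values are on a log2 scale, on which a difference of 1 is a doubling, and ranged from 2.48 to 14.28 with array medians of 3.88 to 3.98. Probe sets against viral genomes, 683 of them, served as a measure of background, with a median of 3.42 and a 95th percentile of 4.29. Some arrays stood apart from the rest. Very-late replicate 1 had a gap of 2.70 between its 3′ and 5′ GAPDH probe sets, against 0.83 to 1.78 on the other 19 arrays. The mean of 6 mitochondrial-genome probe sets was 7.02 to 8.93 on 7 arrays (the 4 mid arrays, very-late replicate 2, early replicate 4 and mid-late replicate 1) and 11.50 to 12.45 on the other 13. Changes of single WNT pathway genes were therefore also computed with these arrays accounted for, and the values stand beside many of the changes. The cell markers described at the end were not treated in this way.

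Most of the ligands lay at background. In their highest stage, 17 of the 39 genes (43.6%) had a mean above the 95th percentile of the viral probe sets, against 67.0% of all genes: 4 of 17 ligands, 6 of 9 frizzleds, 3 of 4 co-receptors and 4 of 9 inhibitors. The ligands above it were WNT3, WNT5A, WNT5B and WNT10B. The other 13 (WNT1, WNT2, WNT2B, WNT4, WNT6, WNT7A, WNT7B, WNT8A, WNT8B, WNT9B, WNT10A, WNT11 and WNT16) had stage means of 3.17 to 4.20, and none of them varied between stages by more than 0.23. FZD3, FZD9 and FZD10 lay between 3.15 and 4.08 and LRP5 between 3.60 and 3.75. DKK1, DKK2, DKK4, SFRP5 and WIF1 lay between 3.06 and 3.98. A value at background shows only that these probe sets did not report the transcript, and says nothing of its presence in a few cells.

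Stage means were tested with limma, adjusted by Benjamini-Hochberg over 52707 probe sets, and an adjusted p under 0.05 is called past the test. Over all 5 stages, 7 of the 39 genes passed (17.9%), against 33.6% of all genes. They were WNT5A, WNT3, FZD4, FZD6, FZD8, DKK3 and SFRP4. All 7 are among the 17 genes above background (41.2% of these), and of all 9465 genes above background 47.7% passed. A gene can be above background through the 1 stage in which it is high, so these shares are only a description. The mid stage was the highest for 12 of the 39 genes (30.8%), against 15.2% of all genes, and for 8 of the 17 above background (47.1%), against 13.4% of all genes above background. The early stage was the highest for 7 of the 39 (17.9%), against 26.3% of all genes, and for 1 of the 17 (5.88%), against 28.5%. All 4 mid arrays are in the low mitochondrial group, so the mid stage and that group cannot be told apart for these counts.

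**Figure D1:**
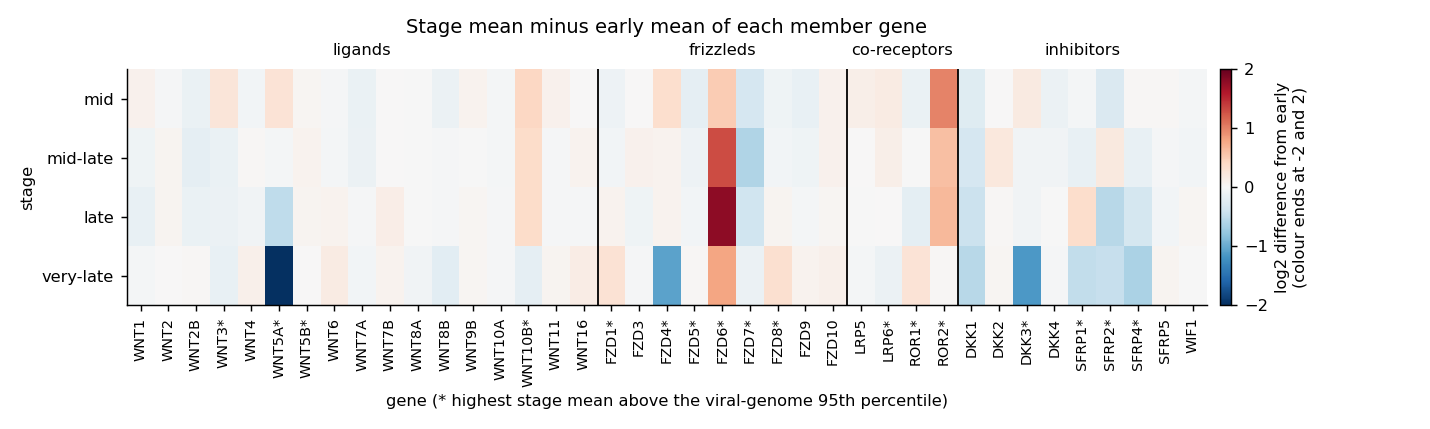
Difference of each stage mean from the early mean (log2, colour) for the 39 genes, grouped by role, with an asterisk where the highest stage mean exceeds the viral-genome 95th percentile of 4.29. Most columns are near white, and the deep colours are WNT5A at the very-late stage (-4.14, beyond the end of the colour scale), FZD6 at the mid-late and late stages, and FZD4 and DKK3 at the very-late stage.

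The comparisons were each later stage against early, and each stage from mid-late on against the one before it. Comparisons with early share the early arrays and are not independent of each other. Up to the late stage, none of the 39 genes passed any comparison but late against early. The share of all genes that passed was also low, so this is not read as a trait of these genes. Mid against early gave 0 of 39 past limma's test (5 at an unadjusted p under 0.05, 3 higher and 2 lower), where 0.594% of all genes passed. Mid-late against early gave 0 (1 unadjusted, higher) where 6.31% of all genes passed, and mid-late against mid gave 0 (3 unadjusted, all lower) where 0.0142% did. Late against mid-late gave 0, adjusted or not, where 0.00708% of all genes passed.

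Late against early gave 1 gene of 39 (2.56%), FZD6, which was higher, against 12.3% of all genes (4.22% higher and 8.07% lower). Very-late against early gave 6 (15.4%), 1 higher and 5 lower, against 28.9% of all genes (11.9% higher and 17.0% lower). Very-late against late gave 5 (12.8%), 2 higher and 3 lower, against 21.4% of all genes (10.2% higher and 11.2% lower). With DKK3 left out, whose probe sets disagree, the split was 1 higher and 4 lower of 38 against early, and 2 higher and 2 lower against late. Among the 17 genes above background the 3 comparisons gave 5.88%, 29.4% and 29.4%, against 17.6%, 40.6% and 30.3% of all genes above background. The median change of the 39 genes was near 0 (-0.02, -0.01 and -0.01), as was that of all genes (-0.02, -0.01 and 0.01).

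Among the ligands, WNT5A fell steeply from the late to the very-late stage. From early to late its stage means were 10.04, 10.30, 9.99 and 9.53. None of the comparisons made among those stages passed for it, and late against mid was not tested. WNT5A is the best known of the ligands that act through ROR2 without beta-catenin. Its values were 10.28, 9.94, 9.84 and 10.08 on the early arrays, 9.89, 10.56, 10.35 and 10.41 on the mid arrays and 9.94, 9.93, 9.75 and 10.36 on the mid-late arrays. On the late arrays they were 8.50, 10.12, 10.13 and 9.38, and on the very-late arrays 6.03, 5.06, 6.44 and 6.04. Every very-late array was lower than every array of the other stages, and late replicate 1 was the lowest of the other 16.

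The very-late mean of WNT5A, 5.89 ± 0.59 (SD, n = 4), fell by 3.64 ± 0.31 (SE) from the late mean of 9.53 ± 0.77, a 12.5-fold fall (adjusted p = 2.76e-07). Against early the fall was 4.14 ± 0.31 (17.7-fold, adjusted p = 3.515e-08). Both falls stayed past the test in all 32 alternative analyses. Among these, a minimum of 2-fold keeps falls of this size by its construction. Without very-late replicates 1 and 2 the fall from late was 3.29 (adjusted p = 6.567e-06), and within the high mitochondrial group it was 3.36 (adjusted p = 3.012e-05). The other 2 probe sets of WNT5A fell as well. MmugDNA.25072.1.S1_at fell by 2.38 ± 0.38 from late to very-late (adjusted p = 2.198e-04), to 3.67, which is below the viral 95th percentile. Mmu.4615.1.S1_s_at fell by 0.77 ± 0.23 (adjusted p = 0.02633), from a late mean of 4.10 that was itself below that percentile, to 3.32. Both ended at background, so the sizes of these falls are not compared with that of the representative.

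WNT3, a ligand that acts through beta-catenin, passed the test over all stages close to background. Its values were 4.27, 4.14, 4.04 and 4.29 on the early arrays, 4.34, 4.69, 4.24 and 4.41 on the mid arrays and 4.14, 3.97, 4.09 and 4.02 on the mid-late arrays. They were 3.93, 4.11, 4.08 and 4.15 on the late arrays and 4.09, 4.02, 3.92 and 4.09 on the very-late arrays. The mid arrays lay above all arrays from the mid-late stage on and overlapped the early arrays. No single comparison passed, and all 4 mid arrays belong to the low mitochondrial group. The adjusted p over all stages was 0.008785, 0.1417 with a term for the mitochondrial groups and 0.5118 for the mean of the gene's probe sets.

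WNT10B, another ligand of the beta-catenin branch, had stage means of 5.01 ± 0.36, 5.43 ± 0.13, 5.38 ± 0.43, 5.39 ± 0.31 and 4.82 ± 0.12 from early to very-late (SD, n = 4 each). Its very-late arrays (4.65 to 4.92) lay below its late arrays (5.16 to 5.84), but the difference of -0.56 ± 0.20 did not pass (adjusted p = 0.06665). WNT5B, the close relative of WNT5A, had stage means between 4.30 and 4.37. WNT8B, whose highest stage mean of 3.64 is below the viral 95th percentile, was called lower at very-late than at early by 0.21 ± 0.07 (adjusted p = 0.04944). The early arrays (3.55 to 3.71) and very-late arrays (3.32 to 3.65) overlapped, and 20 of 31 alternatives ended the call.

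Of the frizzleds, FZD6 rose from the early to the late stage. FZD6 is best known for its part in planar cell polarity, the alignment of cells within a sheet. Its values were 4.94, 6.45, 5.59 and 5.74 on the early arrays, 6.13, 5.78, 6.42 and 6.40 on the mid arrays and 6.63, 6.82, 7.29 and 7.22 on the mid-late arrays. On the late arrays they were 6.89, 7.46, 7.60 and 7.91. On the very-late arrays they were 6.72, 4.92, 7.37 and 6.89, with replicate 2 as low as the lowest early array. The late arrays did not overlap the early ones.

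The late mean of FZD6 was higher than the early mean by 1.78 ± 0.40 (SE), a 3.44-fold rise (adjusted p = 0.01015), and this call stood in all 32 alternatives. The minimum of 2-fold among them keeps it by its construction. The mid-late arrays did not overlap the early ones either, and the difference of 1.31 ± 0.40 missed the threshold (adjusted p = 0.08376). It passed without very-late replicate 2 (adjusted p = 0.00971), whose value enters the estimate of the spread. Very-late against early gave 0.79 ± 0.40 (adjusted p = 0.2115), and 1.45 (adjusted p = 0.005993) without very-late replicates 1 and 2. The adjusted p over all stages, 0.01974, became 0.05396 without late replicate 4.

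FZD4 kept its level through the late stage and fell at the very-late stage. FZD4 is a receptor for WNTs and for norrin on blood vessels, and mice that lack it are infertile with poorly formed corpora lutea. Its values were 7.94, 7.61, 7.61 and 7.87 on the early arrays, 8.33, 8.12, 8.34 and 7.61 on the mid arrays and 8.00, 8.11, 7.41 and 7.80 on the mid-late arrays. They were 7.94, 7.86, 7.81 and 7.72 on the late arrays and 6.64, 5.75, 7.18 and 7.19 on the very-late arrays. All very-late arrays were below all others, and replicates 1 and 2, which stand apart, were the lowest.

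The fall of FZD4 from late to very-late was 1.14 ± 0.25 (SE), or 2.21-fold (adjusted p = 0.003583). Without very-late replicates 1 and 2 it was 0.65 (adjusted p = 0.04458), and in the high mitochondrial group 0.83 (adjusted p = 0.005986). Against early the very-late mean fell by 1.07 ± 0.25 (adjusted p = 0.004278), which became 0.57 (adjusted p = 0.05343) without replicates 1 and 2.

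FZD8 moved the other way by a small amount. It is a frizzled that signals with LRP6 to beta-catenin. Its values were 5.04, 5.16, 5.11 and 5.08 on the early arrays, 5.08, 4.97, 4.96 and 5.05 on the mid arrays and 4.99, 5.15, 5.03 and 4.97 on the mid-late arrays. They were 5.33, 5.19, 4.96 and 5.10 on the late arrays and 5.44, 5.37, 5.58 and 5.26 on the very-late arrays. The very-late arrays were above all early arrays and overlapped the late ones, since late replicate 1 was higher than very-late replicate 4.

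FZD8 was higher at very-late than at early by 0.31 ± 0.08 (SE; 1.24-fold, adjusted p = 0.005767) and than at late by 0.27 ± 0.08 (adjusted p = 0.02387). The rise over late was lost on leaving out late replicate 3 (0.20, adjusted p = 0.1002), late replicate 4 (adjusted p = 0.06497), very-late replicate 1 (adjusted p = 0.0558) or very-late replicate 3 (adjusted p = 0.0813). Without very-late replicates 1 and 2 it was 0.27 (adjusted p = 0.1029), while the rise over early was 0.32 and passed (adjusted p = 0.03136). In the high mitochondrial group the adjusted p was 0.05137 against early and 0.08714 against late. The remaining frizzleds above background passed no test. FZD1 had stage means between 5.73 and 6.12, FZD5 between 4.12 and 4.32 and FZD7 between 4.82 and 5.42.

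**Figure D2:**
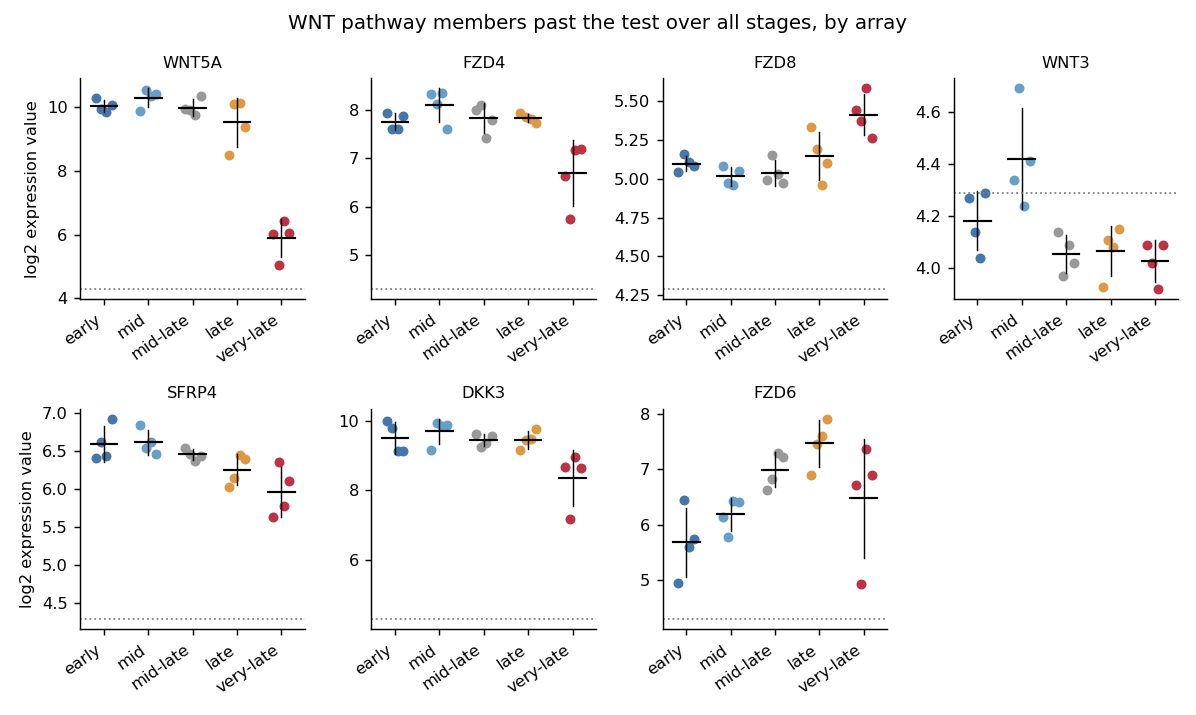
Log2 values of the 7 genes past the test over all stages, on each of the 20 arrays (points), with the stage mean (bar) and SD (vertical line, n = 4) and the viral-genome 95th percentile of 4.29 (dotted), each panel on its own axis. WNT5A and FZD4 are lowest on all 4 very-late arrays, FZD6 climbs from early to late, and FZD8 and WNT3 vary over less than 1 unit.

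Among the co-receptors, ROR1, a kinase-like receptor of the branch without beta-catenin, was higher at very-late (4.70, 3.99, 4.36 and 4.21) than at late (4.08, 3.77, 3.76 and 3.73) by 0.48 ± 0.15 (SE; adjusted p = 0.03962). All 4 late arrays and 2 of the 4 very-late arrays lay below the viral 95th percentile of 4.29, so the late level is at background and the size of the difference is uncertain. The 2 stages overlapped, because late replicate 1 lay above very-late replicate 2. The call was lost in 8 of 31 alternatives. It was lost without very-late replicate 1 (difference 0.35, adjusted p = 0.142), without very-late replicate 3 (adjusted p = 0.0773) and without late replicate 2, 3 or 4 (adjusted p = 0.0942, 0.101 and 0.104). Leaving out very-late replicates 1 and 2 together gave 0.45 (adjusted p = 0.1001). Against early, ROR1 did not pass (difference 0.28 ± 0.15, adjusted p = 0.2463).

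ROR2, the co-receptor of WNT5A, had stage means of 5.58 ± 0.40, 6.58 ± 0.76, 6.18 ± 0.46, 6.23 ± 0.14 and 5.60 ± 0.47 from early to very-late (SD, n = 4 each). Its mid arrays (7.14, 6.73, 6.99 and 5.48) included the highest values, but replicate 4 overlapped the early arrays (5.24 to 6.03). The mid against early difference of 1.00 ± 0.32 did not pass (adjusted p = 0.1978), and neither did the test over all stages (adjusted p = 0.0892). LRP6, the beta-catenin co-receptor, had stage means between 4.64 and 4.93 by its representative, which passed no test. Its other probe set, MmugDNA.38421.1.S1_at, had stage means below the viral 95th percentile, 3.69 at early and 4.27 at very-late. Its very-late arrays (4.18 to 4.52) lay above its early arrays (3.46 to 3.89), while the representative was not higher at very-late.

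The inhibitor DKK3 was read by 6 probe sets, and these moved in opposite directions at the very-late stage. DKK3 is a divergent member of the dickkopf family that is not established as a blocker of LRP5 and LRP6. Its representative, MmugDNA.43051.1.S1_s_at, read 10.00, 9.80, 9.12 and 9.12 on the early arrays, 9.14, 9.93, 9.83 and 9.86 on the mid arrays and 9.60, 9.25, 9.36 and 9.57 on the mid-late arrays. It read 9.14, 9.43, 9.48 and 9.75 on the late arrays and 8.67, 7.18, 8.94 and 8.65 on the very-late arrays. The very-late arrays were below all others, and very-late replicate 2 was the lowest by far.

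MmugDNA.42302.1.S1_at behaved in the same way. It read 6.84, 6.55, 5.75 and 6.13 on the early arrays, 5.84, 6.64, 6.76 and 6.66 on the mid arrays, 6.37, 6.03, 6.21 and 6.43 on the mid-late arrays and 5.87, 6.16, 6.36 and 6.57 on the late arrays. On the very-late arrays it read 4.57, 4.28, 5.02 and 4.87. These 4 lay below all other arrays.

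The opposite was seen with MmugDNA.35565.1.S1_at, which read 7.60, 7.42, 7.85 and 8.52 on the early arrays, 8.91, 6.92, 7.87 and 7.76 on the mid arrays and 7.29, 7.99, 8.21 and 7.87 on the mid-late arrays. It read 8.29, 8.49, 8.51 and 8.89 on the late arrays and 9.66, 11.28, 10.34 and 10.56 on the very-late arrays. Very-late replicate 2, the lowest array with the representative, was the highest with this probe set.

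Mmu.1605.1.S1_at followed that pattern. It read 6.78, 7.03, 7.66 and 7.87 on the early arrays, 8.38, 5.83, 7.34 and 7.40 on the mid arrays, 7.09, 7.69, 8.06 and 7.37 on the mid-late arrays, 7.69, 7.99, 7.97 and 8.14 on the late arrays and 9.41, 10.83, 9.75 and 10.07 on the very-late arrays. Again all very-late arrays lay above all others.

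From late to very-late, the representative fell by 1.09 ± 0.30 (SE; 2.13-fold, adjusted p = 0.02025) and MmugDNA.42302.1.S1_at by 1.55 ± 0.23 (2.94-fold, adjusted p = 1.448e-04). Over the same step MmugDNA.35565.1.S1_at rose by 1.92 ± 0.36 (3.77-fold, adjusted p = 0.00121) and Mmu.1605.1.S1_at by 2.07 ± 0.41 (4.19-fold, adjusted p = 0.001647). Against early the changes were -1.15 ± 0.30 and -1.63 ± 0.23 for the first pair (adjusted p = 0.01054 and 5.646e-05) and 2.61 ± 0.36 and 2.68 ± 0.41 for the second (adjusted p = 4.024e-05 and 9.823e-05). No direction can be given for DKK3 as a gene from these values.

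Without very-late replicates 1 and 2, the representative no longer passed (-0.66, adjusted p = 0.1412, against late, and -0.72, adjusted p = 0.06875, against early), and its call against late was also lost without late replicate 3 (adjusted p = 0.0509) or late replicate 4 (adjusted p = 0.06596), and with only the 8 arrays of both stages fitted (adjusted p = 0.1073). The other 3 probe sets kept theirs against late, at -1.29 (adjusted p = 0.005831), 1.91 (adjusted p = 0.004824) and 1.97 (adjusted p = 0.01329). The mean of all 6 probe sets rose by 0.42 against early (adjusted p = 0.002511), and its difference of 0.25 from late did not pass (adjusted p = 0.07677).

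The fifth probe set, Mmu.9375.1.S1_at, read 6.40 to 6.85 on the 16 arrays up to the late stage and 6.92, 6.94, 6.76 and 6.93 on the very-late arrays, 0.27 ± 0.07 above late (adjusted p = 0.01777). The rise was lost without very-late replicate 2 (adjusted p = 0.0512), without very-late replicates 1 and 2 together (0.22, adjusted p = 0.1665) or without late replicate 3 (adjusted p = 0.0629). The sixth, MmugDNA.43051.1.S1_at, had stage means of 3.25 to 3.57, at background, and passed no test. In Affymetrix naming the ending s_at, which the representatives of WNT5A, DKK3 and SFRP4 carry, marks a probe set whose probes can match several transcripts, and the probe sequences were not used here, so which DKK3 transcripts each probe set reads was not tested. Of 6375 genes with more than 1 probe set, 57 (0.894%) had probe sets called in both directions from late to very-late, or 6.18% of the 923 genes with at least 2 called. DKK3 was the only WNT gene among them.

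**Figure D3:**
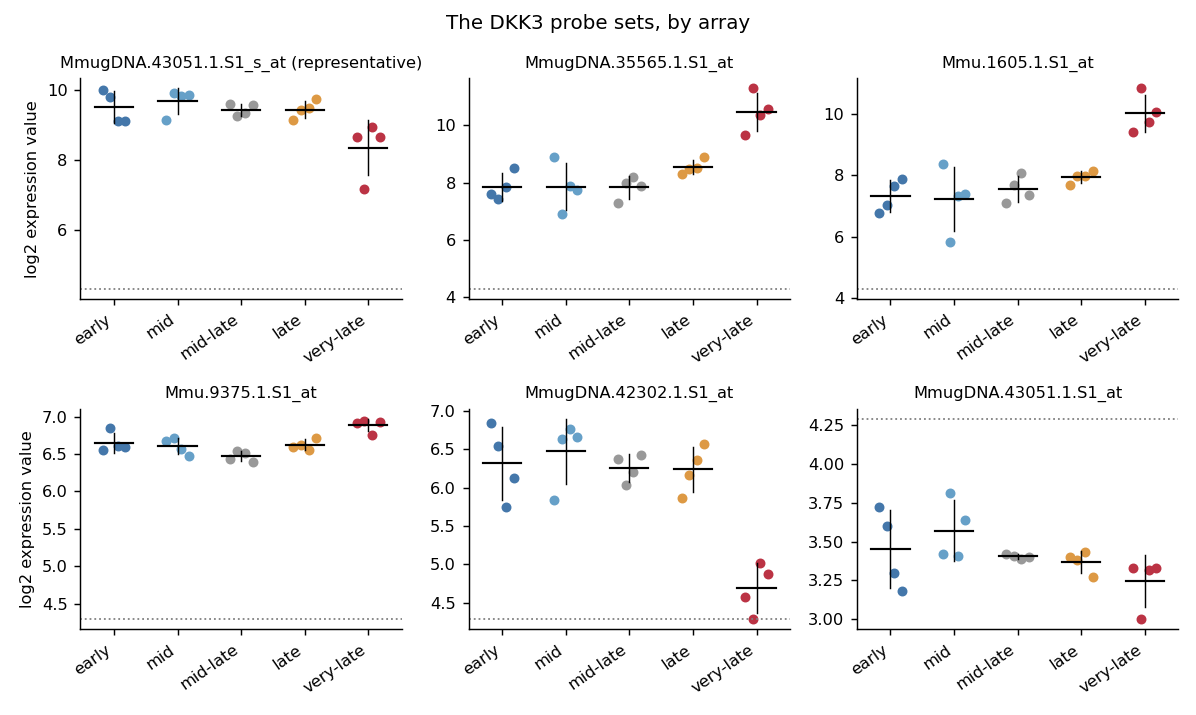
Log2 values of the 6 DKK3 probe sets on each of the 20 arrays (points), with stage mean, SD (n = 4) and the viral-genome 95th percentile (dotted), each panel on its own axis. At the very-late stage MmugDNA.35565.1.S1_at and Mmu.1605.1.S1_at are above all other arrays, while the representative and MmugDNA.42302.1.S1_at are below all other arrays and MmugDNA.43051.1.S1_at is at background throughout.

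SFRP4, a secreted frizzled-like protein that binds WNTs and is known from rodent corpora lutea, declined late in the cycle by its representative probe set. The values were 6.41, 6.62, 6.44 and 6.93 on the early arrays, 6.85, 6.55, 6.62 and 6.46 on the mid arrays and 6.55, 6.47, 6.37 and 6.44 on the mid-late arrays. They were 6.03, 6.15, 6.45 and 6.40 on the late arrays and 5.63, 6.36, 5.78 and 6.11 on the very-late arrays. The very-late arrays lay below the early ones and overlapped the late ones.

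The very-late mean of SFRP4 fell by 0.63 ± 0.15 (SE) from the early mean (1.55-fold, adjusted p = 0.004353) and the difference from late, -0.29 ± 0.15, did not pass (adjusted p = 0.2489). Without very-late replicates 1 and 2 the fall from early was 0.66 (adjusted p = 0.005868). Another probe set, MmugDNA.42328.1.S1_at, fell by 0.53 ± 0.13 from early to late (adjusted p = 0.01587) and by 0.86 ± 0.13 from early to very-late (adjusted p = 8.738e-05). The third, MmugDNA.38273.1.S1_at, ran differently, with stage means of 5.57, 4.25, 4.44, 5.27 and 6.72. It passed the test over all stages (adjusted p = 0.004488, and 0.1285 in the high mitochondrial group alone). Its very-late arrays (6.39 to 7.02) lay above its late arrays (4.63 to 5.88), at 1.45 ± 0.48 (adjusted p = 0.05312), and early replicate 1, at 7.59, was its highest array. The fourth, MmugDNA.29346.1.S1_at, was at background. The mean of the probe sets of SFRP4 differed from early to very-late by -0.11 (adjusted p = 0.5981).

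SFRP1 and SFRP2, secreted proteins of the same family, passed no test. SFRP2 varied widely within stages, and SFRP1 did so at the early and very-late stages. SFRP1 had stage means of 6.73 ± 0.93, 6.69 ± 0.18, 6.58 ± 0.21, 7.08 ± 0.25 and 6.24 ± 0.50 (SD, n = 4 each). SFRP2 ranged from 3.45 to 6.39 on the 4 very-late arrays alone.

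**Figure D4:**
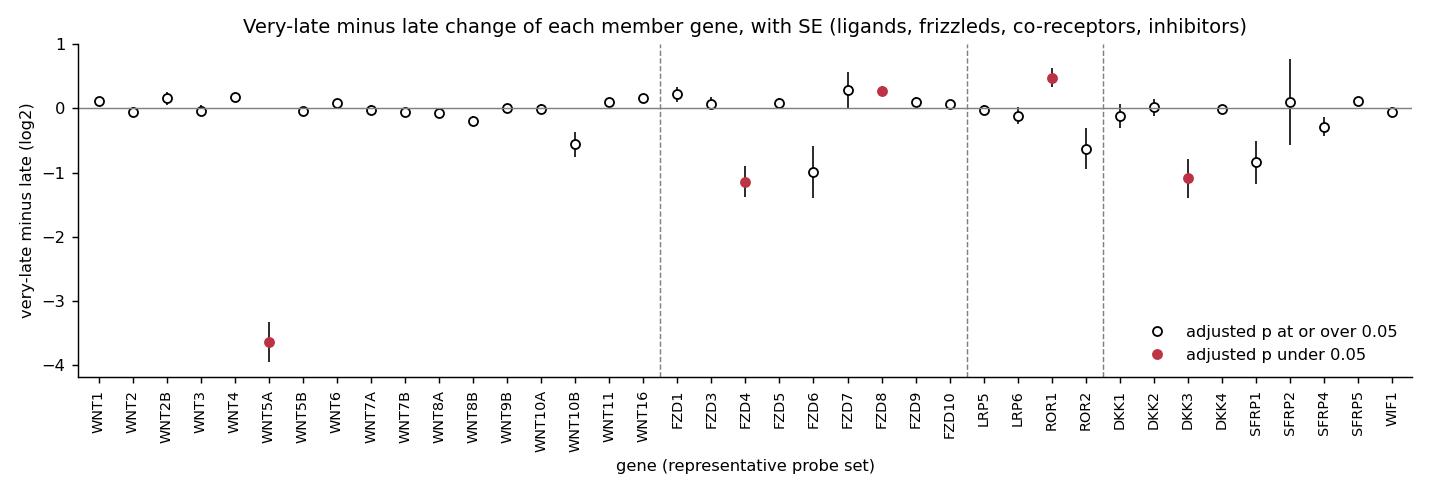
Very-late minus late change (log2) of the 39 genes by representative probe set, with the SE of the fit, filled where the adjusted p is under 0.05. WNT5A, at -3.64, stands well below the others. Among the genes called, FZD4 and DKK3 lie near -1, and FZD8 and ROR1 are the 2 above 0. FZD6, with a mean of 7.46 at late and 6.47 at very-late, also lies near -1 but is not called.

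The other genes of the pathway were taken from 8 lists by role, and their counts over all stages stand against the 33.6% of all genes that passed, and those from late to very-late against 10.2% higher and 11.2% lower. Both measured genes of WNT secretion passed the test over all stages. WLS, the carrier that takes WNTs to the cell surface, had stage means of 8.53 ± 0.67, 10.75 ± 0.76, 10.47 ± 0.38, 10.04 ± 0.30 and 9.24 ± 1.21, and rose by 1.94 ± 0.48 (SE) from early to mid-late (adjusted p = 0.03102), and by 1.64 in the high mitochondrial group alone (adjusted p = 0.02911). Its mid arrays (9.63 to 11.23) lay above its early arrays (7.77 to 9.17) with an adjusted p of 0.0545, and the mid arrays are all in the low mitochondrial group. PORCN, the enzyme that adds the lipid, fell by 0.51 ± 0.15 from early to late (adjusted p = 0.04943) and by 0.62 ± 0.15 from early to very-late (adjusted p = 0.006954). The second difference was -0.54 without very-late replicates 1 and 2 (adjusted p = 0.06316), and in the high mitochondrial group alone neither passed (adjusted p = 0.1586 and 0.1141).

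Of 6 measured genes of the R-spondin and LGR group, 1 passed over all stages: RNF43, a ligase that removes frizzleds from the cell surface, rose by 1.05 ± 0.19 from early to very-late (adjusted p = 5.18e-04). LGR4, a receptor for R-spondins, did not pass over all stages but fell by 1.10 ± 0.28 from early to very-late (adjusted p = 0.008017) and by 0.88 ± 0.28 from late to very-late (adjusted p = 0.04145). On the remaining arrays, without very-late replicates 1 and 2, the differences were -0.68 and -0.46 and did not pass (adjusted p = 0.09767 and 0.3688). None of 7 other measured inhibitors passed over all stages (1 at an unadjusted p under 0.05 in limma), and neither did DVL2, the only dishevelled measured. APCDD1, 1 of the 7 inhibitors, was however lower than early by 1.32 at late (adjusted p = 0.03676) and by 1.24 at very-late (adjusted p = 0.02514). Its very-late arrays read 8.55, 6.64, 8.82 and 8.29. Replicate 2, which stands apart, was the lowest of them, and replicate 3 overlapped the early arrays (8.64 to 9.82). Of 8 genes of the destruction complex, which degrades beta-catenin, 1 passed. This was GSK3B, lower at late than at early by 0.33 (adjusted p = 0.03515, or 0.06089 when the mitochondrial group was a term of the fit).

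Of 9 genes among the catenins, TCF factors and partners, 3 passed. TCF7, a DNA-binding partner of beta-catenin, was lower than early at all 4 later stages, by 0.61 at late (adjusted p = 1.21e-04), though its stage means of 3.33 to 3.94 are below the viral 95th percentile. Its difference at mid had an adjusted p of 0.05923 when the mitochondrial group was a term of the fit. TLE3, a co-repressor, rose by 0.71 from late to very-late (adjusted p = 4.59e-04), and by 0.70 without very-late replicates 1 and 2 (adjusted p = 0.002753). TCF7L1 rose by 0.49 from early to late (adjusted p = 0.001708) and fell by 0.30 from late to very-late (adjusted p = 0.02326), a fall that did not pass without very-late replicates 1 and 2 (-0.18, adjusted p = 0.3372). CTNNB1, which encodes beta-catenin, and LEF1 have no value here.

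Of 13 genes known as targets of beta-catenin, 5 passed over all stages. From late to very-late 1 was higher and 1 lower, with a median change of -0.05 against 0.01 for all genes. AXIN2, a widely used readout of the pathway, read 3.73, 3.59, 3.70 and 4.03 on the late arrays and 4.29, 3.84, 4.37 and 5.01 on the very-late arrays, a rise of 0.61 ± 0.17 (adjusted p = 0.02243) from late values that were all below the viral 95th percentile. The rise was 0.92 without very-late replicates 1 and 2 (adjusted p = 0.001242). CCND1, a cell cycle regulator, fell by 0.79 over the same step (adjusted p = 3.9e-05), and by 0.81 without those replicates (adjusted p = 4.16e-04). TNFRSF19 rose by 1.86 from early to late (adjusted p = 0.0145). The other 2 of the 5, TCF7 and RNF43, belong also to the lists above. MYC did not pass over all stages but was lower than early by 0.92 at late (adjusted p = 0.04801) and by 0.85 at very-late (adjusted p = 0.0353).

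Of 17 genes of planar polarity and calcium signalling, the branches without beta-catenin, 9 passed over all stages, and from late to very-late 1 was higher and 6 were lower, with a median change of -0.08 against 0.01 for all genes. NFATC2, a calcium-regulated transcription factor, rose by 0.57 (adjusted p = 7.74e-04), also without very-late replicates 1 and 2 (adjusted p = 0.01006). INVS fell by 0.33 (adjusted p = 0.002715), and VANGL1, a core polarity protein, by 0.64 (adjusted p = 0.006094). Without those replicates the difference of VANGL1 was -0.33 and did not pass (adjusted p = 0.06755). NFATC1, a relative of NFATC2, rose by 0.79 from early to late (adjusted p = 0.0233, and 0.09837 in the high mitochondrial group alone).

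**Figure D5:**
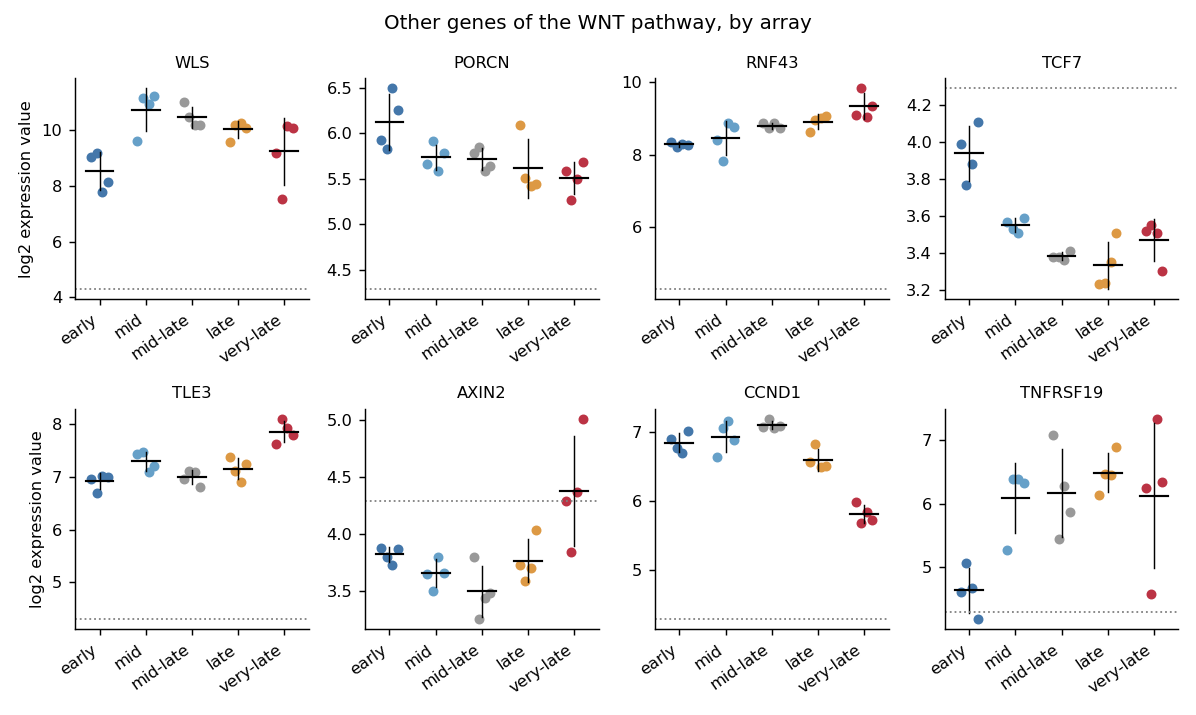
Log2 values of 8 other genes of the WNT pathway on each of the 20 arrays (points), with stage mean, SD (n = 4) and the viral-genome 95th percentile (dotted), each panel on its own axis. WLS has its lowest mean at the early stage (8.53), CCND1 has its lowest values on the very-late arrays, and TCF7 and most AXIN2 values lie below the dotted line.

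Markers of cell types moved over the same stages, and in bulk tissue fewer cells of a type and less RNA per cell cannot be told apart. From late to very-late their counts stand against 10.2% of all genes higher and 11.2% lower. From early to late they stand against 4.22% higher and 8.07% lower. A lone marker called in a list is therefore not read as a shift of that cell type. The 5 measured markers of steroid-producing cells (STAR, HSD3B2, CYP19A1, FDX1 and INHA), which bear out the tissue label with list means of 11.03 to 12.37 per array up to the late stage, were all lower at very-late than at late, when the list mean was 7.30 to 9.02. Of 9 macrophage markers, CYBB and CD68 among them, 7 were higher, with list means of 6.70 to 7.29 on the late arrays and 8.43 to 9.35 on the very-late arrays. Of 9 fibroblast markers 3 were lower (THY1, COL1A1 and COL1A2), and the list means were 7.97 to 8.25 and 7.47 to 7.98. Of 7 pericyte and smooth muscle markers 4 were lower, among them MCAM, with list means of 8.20 to 8.65 and 7.14 to 8.04. Of 11 endothelial markers 3 were lower (KDR, EMCN and MMRN2), with list means of 7.62 to 7.76 and 6.84 to 7.89. A change above 0 was seen for 3 of the 11, TEK among them (0.36, adjusted p = 0.2453). TEK was also higher at very-late than at early, by 1.09 (adjusted p = 2.425e-04). Of the other lists, 1 of 2 T-cell markers (CD8A) was higher at very-late than at late, 1 of 8 markers of dividing cells was lower, and 0 of 8 markers of the ovarian surface epithelium and 0 of 2 of red cells passed, adjusted or unadjusted. From early to late, when FZD6 rose, 4 of the 11 endothelial markers were higher and all 8 markers of dividing cells lower, with list means for the latter of 6.31 to 6.87 and 4.99 to 5.38. Over that step 1 steroidogenic marker was higher (CYP19A1, by 2.03) and 1 lower (HSD3B2, which fell by 2.65), and 1 macrophage marker (CYBB, by 1.31) and 1 fibroblast marker (DCN, by 1.52) were higher. Of the surface epithelium markers 1 was lower (KRT8, which fell by 2.42), and no pericyte, T-cell or red-cell marker passed limma's test (2 pericyte markers had an unadjusted p under 0.05). What part these shifts have in the changes of WNT5A, FZD4, FZD6, FZD8, ROR1, DKK3 and SFRP4 was not tested.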

How the data were processed

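The authors deposited 1 log2 value per probe set and array, made with RMA (background correction, quantile normalisation and summary) per the submitters' processing notes; its version and the chip definition are not given in the sources used here. The log2 scale was read from the values. The arrays hold 52865 probe sets, and the 158 controls were not tested. Stages came from the sample titles, and gene symbols from the platform's annotation, in which 24956 probe sets had 1 symbol.

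In R 4.3.3, limma 3.58.1 fitted a mean for each of the 5 stages to all 20 arrays (degrees of freedom 15 residual, 2.75 prior), followed by an F test over the stages and 7 comparisons, all two-sided, with Benjamini-Hochberg adjustment over 52707 probe sets. For the very-late against late comparison, the procedure was tested on simulated arrays with independent noise. These held no arrays that stand apart, so that test does not cover such arrays. The number of arrays limits the precision. Each p-value sets differences between stage means against the spread of the arrays within stages.

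The genes, the lists of pathway genes and of cell markers, and the alternatives were chosen with earlier results of these data known. By rule, per-array values are printed for genes past the test over all stages and for every DKK3 probe set. Named are genes past each comparison, up to 4 pathway genes per list and 3 markers per cell type past the test over all stages with the lowest p, and CTNNB1, AXIN2, LEF1 and WLS. The text names only some of the markers. ROR2, WNT10B, SFRP1, SFRP2, the further probe sets of WNT5A, LRP6 and SFRP4 and the genes LGR4, APCDD1, MYC, FDX1, INHA, MMRN2, DCN and KRT8 were added after their values were seen. So was accounting for the arrays that stand apart in the other pathway genes. Alternatives were a filter on dim probe sets, other scalings, priors, array weights, a replicate block, averaged probe sets, the 8 arrays compared alone, a minimum of 2-fold, accounting for the arrays that stand apart, and leaving out each array.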

Additional observations from a re-analysis of the deposited data

Results flagged for a closer look

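Over the 19 probe sets of the genes called in any comparison or over all stages, counting every probe set of DKK3, SFRP4 and WNT5A, 95 groups of 4 arrays were looked at for an array far from the other 3, and 9 were found. Chance gives about 1 in 20. Of the 9, 5 were DKK3 probe sets. With the representative, very-late replicate 2 read 7.18 against 8.65 to 8.94 on the other 3, and mid replicate 1 read 9.14 against 9.83 to 9.93. With MmugDNA.42302.1.S1_at, mid replicate 1 was again the low array, at 5.84 against 6.64 to 6.76. With Mmu.9375.1.S1_at, very-late replicate 3 read 6.76 against 6.92 to 6.94. With MmugDNA.43051.1.S1_at, at background, very-late replicate 2 read 3.00 against 3.32 to 3.33.

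The SFRP4 probe set MmugDNA.42328.1.S1_at read 6.94 on early replicate 4 against 6.58 to 6.60 on the other 3, and MmugDNA.29346.1.S1_at read 3.72 on late replicate 4 against 3.43 to 3.46. ROR1 read 4.08 on late replicate 1 against 3.73 to 3.77. WNT8B read 3.65 on very-late replicate 1 against 3.32 to 3.38.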

How the results depend on the processing

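Over 20 changes of named probe sets and 630 alternative values of them, 559 kept their direction and their side of the threshold, 69 no longer passed and 2 reversed. The 2 reversed were the DKK3 changes when all its probe sets were averaged (0.42 against early, 0.25 against late). Of the 20 changes, 10 held in every alternative run. They were both WNT5A falls, the FZD6 rise, the FZD4 fall from late, and changes of DKK3 probe sets. These probe sets were Mmu.1605.1.S1_at, MmugDNA.35565.1.S1_at and MmugDNA.42302.1.S1_at, each against early and against late. The last of them fell and the others rose, so they give DKK3 no direction.

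The count past the test over all stages, 7, was 4 with a minimum of 2-fold and 6 to 9 on leaving out 1 array. For mid-late against early the count of 0 became 1 (FZD6) without dim probe sets, with array weights, with a term for the mitochondrial groups, in the high mitochondrial group alone, without very-late replicates 1 and 2 together and on the 8 arrays alone, and was 0 to 1 on leaving out 1 array. For very-late against early the count of 6 became 3 on the 8 arrays alone and 3 at 2-fold, and 5 to 7 on leaving out 1 array. For very-late against late the count of 5 became 3 without very-late replicates 1 and 2, 2 on the 8 arrays alone and 3 at 2-fold, and 2 to 6 on leaving out 1 array, the 2 without late replicate 3 or late replicate 4. The 2-fold minimum removes the small changes of WNT3, FZD8, ROR1, SFRP4 and WNT8B by its construction, and keeps called changes of at least 2-fold likewise. The fits on 8 arrays use fewer samples. The cause of the other shifts was not tested.

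The replicate numbers do not pair the arrays: deviations of same-numbered arrays correlated at a median of -0.02 (-0.21 to 0.21, 6 of 40 pairs over 0.1). With the number as a replicate block, 8 genes passed over all stages, 6 for very-late against early and 7 for very-late against late. Comparisons with mid have no value in the high mitochondrial group, which holds no mid array. Signal over background limits 22 of the 39 genes, whose stage means never exceeded the viral 95th percentile.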
